A study of Homo sapiens with 12 samples.

Results

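HSPA5, HYOU1, SDF2L1, MANF and DNAJB9 encode chaperones and co-chaperones of the endoplasmic reticulum (ER), and their mRNA was followed in SW480, a cell line established from a human colorectal adenocarcinoma. The genes were taken by symbol and are 5 of the 3699 genes in the authors' table, where their gene IDs are 3309, 10525, 23753, 7873 and 4189. The libraries fall into 4 groups of 3, namely cells treated with GLY, with GLY and PUE together (GLY_PUE), with PUE alone, and untreated cells, and the abbreviations are kept as the labels give them. Cells grew for 12 h in medium with 10% serum and were then kept for 12 h with or without treatment, and RNA was sequenced on the BGISEQ-500 platform. The labels of the GLY libraries read 12, 13 and 14 h for replicates 1, 2 and 3, whereas the protocol gives 12 h for all. The sources used here give no dose. The cell line field reads SW480 for every library, whereas the free-text description raises the number in the name by 1 from each library to the next. The libraries are treated here as 1 cell line, and whether replicates were separate cultures is not stated. The p-values below therefore describe the spread between these libraries only, and that spread may be technical.

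The ER folds proteins that enter the secretory pathway. When unfolded proteins build up there, the sensors IRE1, PERK and ATF6 start the unfolded protein response. IRE1 splices the mRNA of the transcription factor XBP1, PERK phosphorylates eIF2alpha and favours translation of ATF4, and ATF6 is cleaved to a soluble transcription factor. HSPA5 encodes BiP, the HSP70 of the ER lumen, which binds unfolded chains and also the sensors. HYOU1 (GRP170) is a nucleotide exchange factor that lets BiP release its client. DNAJB9 (ERdj4) is a J-domain co-chaperone that brings BiP to misfolded proteins and to IRE1. SDF2L1 is a lumenal protein found in complexes with the J-domain protein DNAJB11, and MANF is a small lumenal protein that binds BiP and can be secreted. All 5 are textbook targets of the response.

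ATF6 and XBP1 act through short elements in the promoters of such genes, so the promoters are shown with the elements found in them. The windows cover the 250 bases upstream of the RefSeq transcription start in GRCh38.p14 and are printed in the sense of the gene, with matches in capitals. The ER stress response element (ERSE) was searched as CCAAT and CCACG separated by any 9 bases. Its second form (ERSE-II) was searched as ATTGG and CCACG separated by any 1 base, and the UPR element (UPRE) as TGACGTGG. Both strands were searched. The sequences of the 3 genes with a match are
HSPA5: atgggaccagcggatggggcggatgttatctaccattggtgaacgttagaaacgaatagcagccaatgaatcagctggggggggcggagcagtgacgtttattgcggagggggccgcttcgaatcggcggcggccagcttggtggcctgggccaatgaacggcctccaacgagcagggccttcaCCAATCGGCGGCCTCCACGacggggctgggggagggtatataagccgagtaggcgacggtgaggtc
HYOU1: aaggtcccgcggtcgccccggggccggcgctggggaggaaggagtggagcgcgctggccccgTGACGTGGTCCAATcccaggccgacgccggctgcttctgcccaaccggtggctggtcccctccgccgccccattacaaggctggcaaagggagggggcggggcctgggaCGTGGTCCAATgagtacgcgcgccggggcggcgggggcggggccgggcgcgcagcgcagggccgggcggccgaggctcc
SDF2L1: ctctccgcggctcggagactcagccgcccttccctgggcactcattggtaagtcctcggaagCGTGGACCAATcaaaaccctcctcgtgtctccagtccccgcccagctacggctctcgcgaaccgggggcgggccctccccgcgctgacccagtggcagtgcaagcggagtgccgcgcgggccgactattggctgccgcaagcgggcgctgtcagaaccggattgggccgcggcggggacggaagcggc
The HSPA5 window (chr9:125241344-125241593, minus strand) held 1 ERSE, at −66 to −48 from the start site. The HYOU1 window (chr11:119057206-119057455, minus strand) held an ERSE-II at −185 to −175 and another at −79 to −69, both on the opposite strand, and a UPRE at −188 to −181 that overlaps the first of them. The SDF2L1 window (chr22:21642052-21642301, plus strand) held 1 ERSE-II, at −188 to −178, on the opposite strand. Neither MANF (chr3:51385041-51385290, plus strand) nor DNAJB9 (chr7:108569624-108569873, plus strand) held any of these letters in the window. Of 35116 promoter windows of the same length, 0.0740% held an ERSE, 0.0513% an ERSE-II and 0.612% a UPRE. The element bound by ATF4 and CHOP (TGATG and AA separated by any 1 base) was in 3.14% of windows and in none of the 5. CCAAT and CCACG taken singly, on either strand and at any spacing, were both present in all 5 windows and in 9.96% of all windows. These matches describe letters and are not evidence of binding.

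Sequencing depth was similar in all libraries, at 19.4 to 21.1 M reads as recovered by dividing counts by FPKM (fragments per kilobase per M reads), and the listed genes held 14.0% to 15.6% of reads. The table is a list selected for change, since each gene passes |log2 ratio| ≥ 1 with q ≤ 0.001 somewhere among the authors' own comparisons. Some libraries stood apart. The libraries numbered 3 differed from numbers 1 and 2 in every group, with a chi-square per gene of 109.9 between untreated replicates 1 and 3 but 3.51 between untreated and PUE replicate 3, and GLY replicate 1 differed from GLY replicate 2 with 243. Outside GLY, numbers 1 and 2 were close to each other, at 2.82 in untreated, 1.98 in PUE and 6.04 in GLY_PUE libraries. The tests below still count them as separate libraries. Of 12 colon epithelial markers 3 were in the table, and with GLY against untreated 1 rose and 2 fell in edgeR's test (described below). In that comparison 674 of all 3429 genes tested were called higher and 2216 lower. CDX2, an intestinal transcription factor, had 3.00 to 6.40 FPKM in GLY, 3.59 to 4.50 in GLY_PUE, 22.9 to 29.2 in PUE and 22.9 to 28.2 in untreated libraries (log2 fold change of GLY against untreated −2.44, adjusted p = 5.28e-05). The tight junction gene CLDN4 rose (1.30, adjusted p = 0.000259), and VIL1, at most 3.95 FPKM in any library, fell (−1.32, adjusted p = 0.00392) but not with scaling by TMM (trimmed mean of M-values) within the table (−0.15, adjusted p = 0.798). Of 12 markers of other cell types 3 were in the table, and 2 rose and 1 fell, beside the same counts over all genes tested. CD14 and PDGFRB, markers of monocytes and fibroblasts, were at most 0.70 and 0.66 FPKM in any library, and with GLY against untreated CD14 fell (−3.01, adjusted p = 0.000594) and PDGFRB rose (1.38, adjusted p = 0.00756). CD68, a lysosomal protein used as a macrophage marker, rose (2.16, adjusted p = 5.46e-05), with 9.43 to 13.5 FPKM in GLY, 9.71 to 13.0 in GLY_PUE, 2.55 to 2.91 in PUE and 2.08 to 3.27 in untreated libraries. The part of these markers' changes and of other cells in the results below was not tested, and in bulk RNA fewer cells of a type and less RNA per cell cannot be told apart.

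With GLY, alone or together with PUE, all 5 chaperone genes were higher than in cells without it. HSPA5, the main ER chaperone, rose most, by 7.26-fold with GLY against untreated cells. SDF2L1, DNAJB9, MANF and HYOU1 rose by 4.14-, 3.50-, 3.35- and 3.16-fold. No difference between PUE and untreated cells was called for any of the 5.

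**Figure D1:**
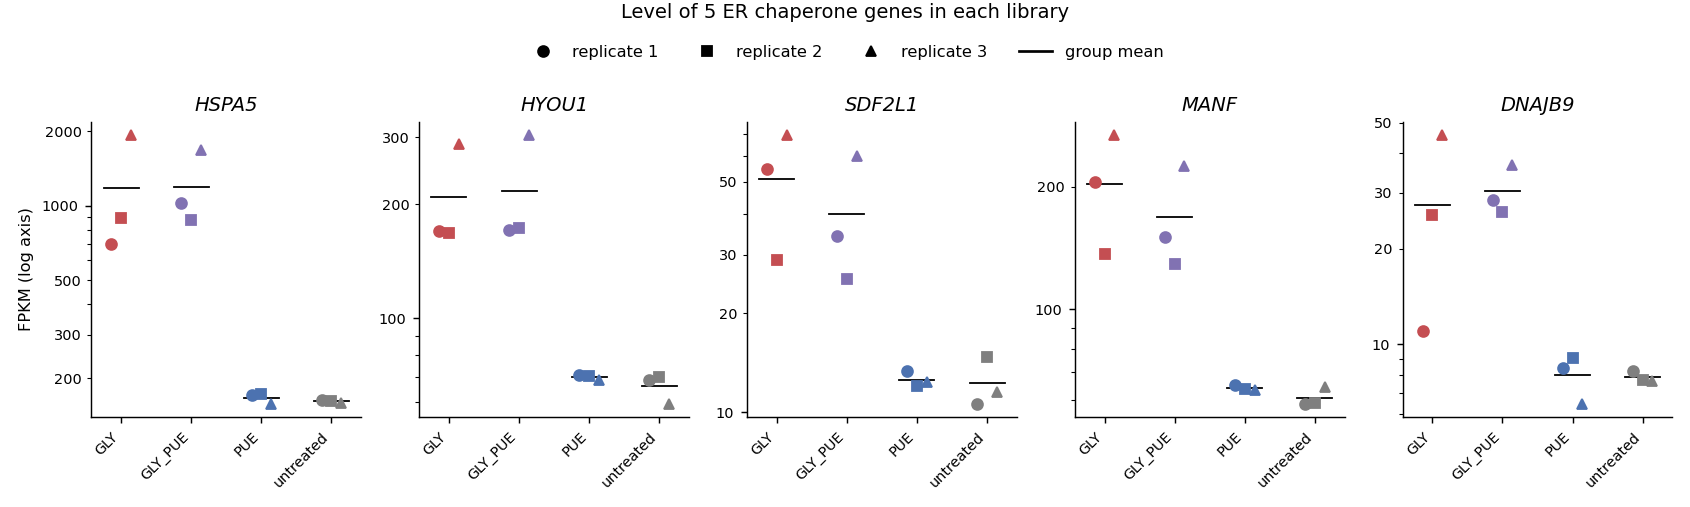
FPKM (log axis) of the 5 ER chaperone genes in each of the 12 libraries, by group, with replicate numbers marked and a bar at the group mean. The GLY and GLY_PUE libraries lie above the PUE and untreated libraries for every gene, and replicate 3 is the highest of both GLY-exposed groups. DNAJB9 in GLY replicate 1 (11.0 FPKM) is the closest to the untreated range.

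HSPA5 had 697, 893 and 1930 FPKM in GLY libraries 1, 2 and 3 and 1022, 876 and 1672 FPKM in GLY_PUE libraries, against 172, 172 and 158 FPKM in PUE libraries and 164, 162 and 159 FPKM in untreated libraries. The GLY-exposed libraries were all far above the rest, and library 3 was the highest of each exposed group. The log2 fold change was 2.86 for GLY against untreated (SE 0.37, 95% interval of the fold 4.19 to 12.6, adjusted p = 9.03e-05) in edgeR's quasi-likelihood test with Benjamini-Hochberg adjustment over 3429 genes. As a share of all reads, HSPA5 held 0.278% to 0.770% in GLY, 0.349% to 0.667% in GLY_PUE, 0.0630% to 0.0687% in PUE and 0.0636% to 0.0652% in untreated libraries. Its FPKM ranked between 5 and 11 among the 3699 listed genes in GLY and between 33 and 35 in untreated libraries. HSPA5 counts were whole numbers in only 1 of 12 libraries, whereas those of the other members were whole in all 12, and how the authors' counting treated reads that match several features is not stated.

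HYOU1 had 170, 167 and 288 FPKM in GLY libraries and 171, 173 and 304 FPKM in GLY_PUE libraries, against 71.1, 70.3 and 68.8 FPKM in PUE libraries and 68.8, 70.1 and 59.5 FPKM in untreated libraries. Numbers 1 and 2 of both exposed groups were nearly alike, number 3 was higher, and no exposed library overlapped the others. The log2 fold change was 1.66 for GLY against untreated (SE 0.28, adjusted p = 0.000446). An antisense transcript, AP003392.3 in GENCODE, overlaps HYOU1, and whether the counting used strand is not stated.

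DNAJB9, the least abundant of the 5 per length, had 11.0, 25.6 and 45.7 FPKM in GLY libraries and 28.5, 26.2 and 36.7 FPKM in GLY_PUE libraries, against 8.41, 9.01 and 6.48 FPKM in PUE libraries and 8.22, 7.68 and 7.63 FPKM in untreated libraries. The GLY libraries differed by 4.15-fold among themselves, more than those of any other member, and replicate 1 lay just above the untreated range. The log2 fold change was 1.81 for GLY against untreated (SE 0.40, adjusted p = 0.00196). Leaving out GLY replicate 1 gave 2.18 and leaving out GLY replicate 3 gave 1.22, with the call kept in both. DNAJB9 overlaps PNPLA8 and THAP5 on the opposite strand, neither of which is in the table.

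SDF2L1 had 54.6, 28.9 and 69.3 FPKM in GLY libraries and 34.3, 25.4 and 59.8 FPKM in GLY_PUE libraries, against 13.3, 12.0 and 12.4 FPKM in PUE libraries and 10.6, 14.7 and 11.5 FPKM in untreated libraries. Here GLY replicate 2, not replicate 1, was the lowest of its group, and the exposed and unexposed libraries did not overlap. The log2 fold change was 2.05 for GLY against untreated (SE 0.37, adjusted p = 0.000589).

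MANF had 205, 137 and 268 FPKM in GLY libraries and 150, 129 and 225 FPKM in GLY_PUE libraries, against 65.2, 63.8 and 63.5 FPKM in PUE libraries and 58.6, 58.8 and 64.3 FPKM in untreated libraries. As for SDF2L1, replicate 2 was the lowest and replicate 3 the highest of each exposed group. The log2 fold change was 1.74 for GLY against untreated (SE 0.28, adjusted p = 0.000309).

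All 5 members were called higher (adjusted p under 0.05) in GLY against untreated, where 19.7% of the genes tested were called higher. For all 5 every GLY library lay above every untreated library, which held for 17.8% of genes. In the authors' comparisons each member reaches |log2 ratio| ≥ 1 only between GLY-exposed and unexposed groups. The calls given here for GLY and GLY_PUE rest on the same libraries and are not independent of that selection. The median log2 fold change of all genes tested was −1.15, and 674 genes were called higher and 2216 lower in all. Among the 3429 genes ranked from the largest increase, HSPA5 was at place 65, SDF2L1 at 155, DNAJB9 at 218, MANF at 232 and HYOU1 at 266. Scaling by TMM, which sets the typical listed gene near 0, gave 812 genes higher and 346 lower and moved the median to −0.02. Under it the log2 fold changes were 3.94 for HSPA5, 2.77 for HYOU1, 3.20 for SDF2L1, 2.90 for MANF and 2.85 for DNAJB9. Without the 4 libraries numbered 3 the members were at 2.29, 1.28, 1.72, 1.54 and 1.20 in the same order, with adjusted p-values of 0.000585, 0.000965, 0.00712, 0.00261 and 0.0283.

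With both agents, the same 5 genes were called higher than in untreated cells, where 20.2% of genes were called higher, and none of their libraries overlapped the untreated ones, as for 21.8% of genes. This comparison and the previous one share the untreated libraries. The log2 fold changes for GLY_PUE against untreated were 2.88 for HSPA5 (SE 0.37, adjusted p = 9.84e-05), 1.71 for HYOU1 (SE 0.28, adjusted p = 0.000406) and 1.96 for DNAJB9 (SE 0.40, adjusted p = 0.00137). They were 1.69 for SDF2L1 (SE 0.36, adjusted p = 0.00178) and 1.47 for MANF (SE 0.28, adjusted p = 0.000827). Against PUE alone, GLY_PUE gave 2.83, 1.62 and 1.93 for HSPA5, HYOU1 and DNAJB9 and 1.66 and 1.39 for SDF2L1 and MANF, with adjusted p-values of 0.000108 to 0.00189. All 5 were called higher there, against 20.6% of genes, and all 5 were free of overlap, against 22% of genes. TMM scaling turned the 694 genes higher and 1957 lower in GLY_PUE against untreated into 817 and 394, and gave 3.86, 2.68, 2.95, 2.67 and 2.46 for HSPA5, HYOU1, DNAJB9, SDF2L1 and MANF. In GLY_PUE against PUE the 705 higher and 1964 lower became 830 and 402, and the members were at 3.82, 2.62, 2.92, 2.65 and 2.39 in that order. Without the libraries numbered 3, GLY_PUE against untreated gave 2.54, 1.31, 1.78, 1.23 and 1.25, all 5 still called.

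**Figure D2:**
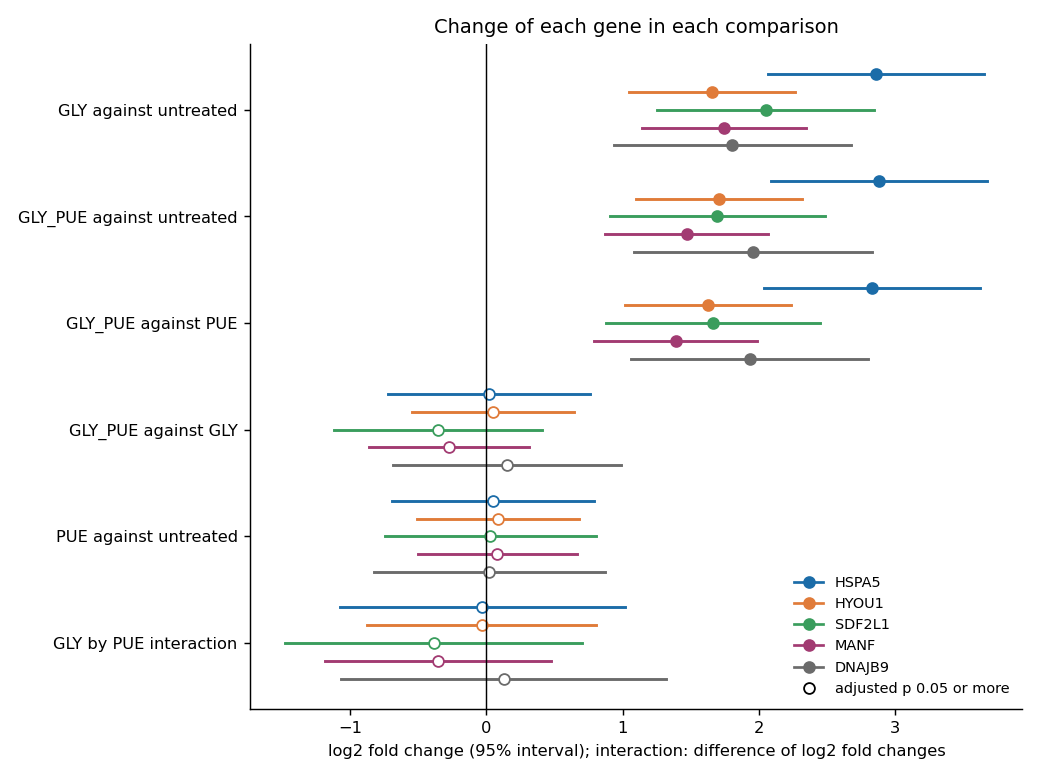
Log2 fold changes of the 5 ER chaperone genes in 5 comparisons and the interaction, with 95% intervals from the edgeR fit and open symbols where the adjusted p is 0.05 or more. The 3 comparisons of GLY-exposed with unexposed groups lie between 1.39 and 2.88. PUE against untreated, GLY_PUE against GLY and the interaction span 0 for every gene.

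No change with PUE alone was called for any of the 5. The log2 fold changes of PUE against untreated were 0.05 for HSPA5 (95% interval −0.69 to 0.79), 0.08 for HYOU1 (−0.51 to 0.68), 0.03 for SDF2L1 (−0.74 to 0.80), 0.08 for MANF (−0.50 to 0.67) and 0.02 for DNAJB9 (−0.82 to 0.87). These intervals use the spread pooled over all groups, and each member varied more among the GLY-exposed libraries than among the rest. Small changes with PUE could thus be missed. EdgeR called no gene at all (0% of 3429), and 12 genes had an unadjusted p under 0.05. DESeq2 and limma-voom also called 0 genes, with 4 and 14 at that unadjusted level. With only the PUE and untreated libraries and a replicate block, edgeR called 1 of 3260 genes, not a member, and 147 were at that level. The authors' deposited table gives a log2 ratio of 0.05 with a q-value of 0.000133 for HSPA5 and of 0.08 with 5.13e-06 for HYOU1 in the same comparison, and q-values of 0.926, 0.202 and 0.912 for SDF2L1, MANF and DNAJB9.

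Adding PUE to GLY gave differences within the spread of the libraries. The log2 fold changes of GLY_PUE against GLY were 0.02 for HSPA5 (95% interval −0.72 to 0.76), 0.05 for HYOU1 (−0.54 to 0.64) and 0.15 for DNAJB9 (−0.69 to 0.99). They were −0.36 for SDF2L1 (−1.12 to 0.41) and −0.27 for MANF (−0.86 to 0.31). The adjusted p-values ran from 0.959 to 0.998, and edgeR called 0% of genes, with 57 at an unadjusted p under 0.05 (49 in DESeq2 and 59 in limma-voom, which also called 0). Within same-numbered libraries, SDF2L1 was at 0.628, 0.878 and 0.863 times its GLY level in GLY_PUE libraries 1, 2 and 3, and MANF at 0.733, 0.944 and 0.841 times. DNAJB9 was at 2.59, 1.02 and 0.803 times its GLY level, so its first library alone was much higher with both agents. The signs of HSPA5 and HYOU1 turned under TMM scaling (−0.07 and −0.09). The authors' deposited table gives −0.36 for SDF2L1 and −0.28 for MANF with q-values of 5.3e-17 and 8.07e-44.

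The interaction asks whether the change with GLY differed in the presence of PUE. Its log2 values were −0.03 for HSPA5 (95% interval −1.08 to 1.02), −0.03 for HYOU1 (−0.87 to 0.81), −0.39 for SDF2L1 (−1.47 to 0.70), −0.36 for MANF (−1.18 to 0.47) and 0.13 for DNAJB9 (−1.06 to 1.32), each with an adjusted p of 0.999. EdgeR called 0% of genes, with 33 at an unadjusted p under 0.05, against 22 in DESeq2 and 35 in limma-voom, which also called 0.

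Within each number, the fold of GLY over untreated was 4.26, 5.52 and 12.1 for HSPA5 in libraries 1, 2 and 3, and that of GLY_PUE over PUE was 5.96, 5.09 and 10.6. For HYOU1 the folds of GLY over untreated were 2.47, 2.39 and 4.83, and those of GLY_PUE over PUE were 2.40, 2.46 and 4.42. The third libraries gave the highest fold for both genes in both pairs of groups. DNAJB9 had 1.34, 3.33 and 5.99 for GLY over untreated and 3.39, 2.91 and 5.66 for GLY_PUE over PUE. SDF2L1 had 5.14, 1.96 and 6.0 and 2.58, 2.12 and 4.83, and MANF had 3.49, 2.32 and 4.16 and 2.30, 2.02 and 3.54. All of these folds were above 1.

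**Figure D3:**
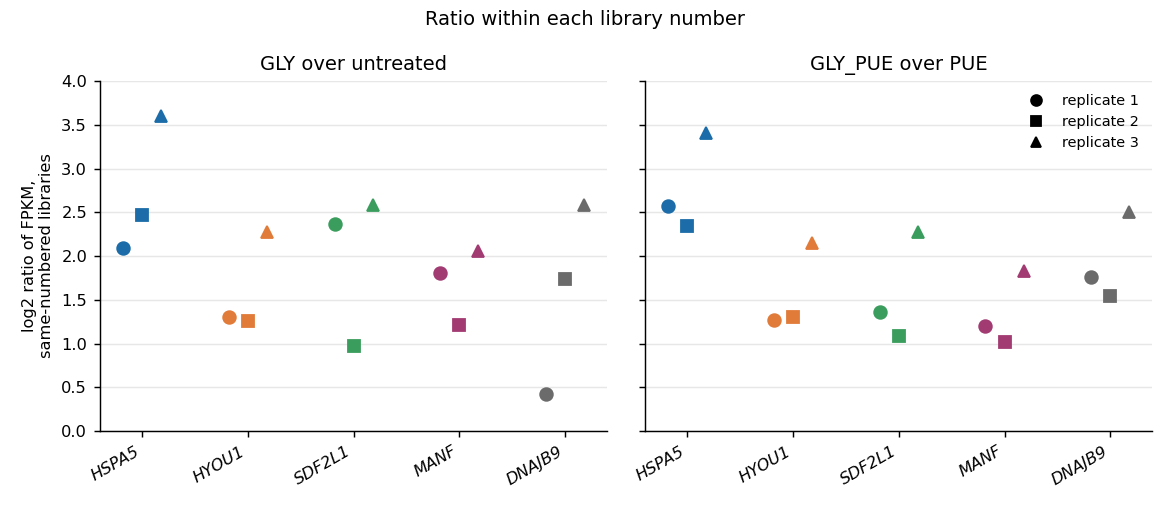
Log2 ratio of FPKM within same-numbered libraries for the 5 ER chaperone genes, as GLY over untreated and GLY_PUE over PUE. The libraries numbered 3 give the highest ratio for every gene in both pairs of groups, and DNAJB9 in GLY library 1 gives the lowest (0.42).

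The GLY effect in libraries numbered 3 was set against that in numbers 1 and 2 in an added fit, chosen after the numbered libraries had been seen to stand apart. In it GLY and GLY_PUE were joined as exposed and PUE and untreated as unexposed, without a term for PUE. GLY replicate 3 is also the library labelled 14 h. The log2 difference was 1.12 for HSPA5 (SE 0.19, adjusted p = 0.00615) and 0.93 for HYOU1 (SE 0.14, adjusted p = 0.00355). It was 0.93 for SDF2L1 (SE 0.39, adjusted p = 0.213), 0.61 for MANF (SE 0.26, adjusted p = 0.213) and 1.09 for DNAJB9 (SE 0.43, adjusted p = 0.188), none of which passed. HSPA5 and HYOU1 were thus 2 of 5 members called higher, against 2.78% of 3523 genes, and 170 genes were called in all. Without GLY replicate 1, SDF2L1 (1.21, adjusted p = 0.000136), MANF (0.78, adjusted p = 1.33e-05) and DNAJB9 (0.86, adjusted p = 5.61e-05) also passed, and 1115 genes were called. The count was 63 without GLY replicate 3, 88 without GLY_PUE replicate 3, 111, 106 and 49 without PUE replicates 1, 2 and 3, and 108 and 64 without untreated replicates 1 and 3. HSPA5 missed the threshold without GLY replicate 3 (1.02, adjusted p = 0.0503) and without PUE replicate 3 (1.12, adjusted p = 0.0540). The sources used here do not say what the number stands for, and its part in the result was not tested.

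The order of the levels per length was the same in all 4 groups, with HSPA5 first, then HYOU1, MANF, SDF2L1 and DNAJB9. Mean HSPA5 was 1173 ± 662 FPKM in GLY, 1190 ± 424 in GLY_PUE, 167 ± 8.06 in PUE and 162 ± 2.07 in untreated libraries (SD, n = 3 each). HSPA5 was clear of HYOU1 in every group. HYOU1 and MANF overlapped in GLY, GLY_PUE and untreated libraries, and SDF2L1 and DNAJB9 overlapped in GLY and GLY_PUE libraries, so the order of these neighbours varied between libraries. Within a library, HYOU1 was above MANF in all 3 GLY_PUE and all 3 PUE libraries and in 2 of 3 GLY and 2 of 3 untreated libraries, the exceptions being GLY replicate 1 (a ratio of 0.832) and untreated replicate 3 (0.925). SDF2L1 was above DNAJB9 in every library but GLY_PUE replicate 2 (0.968). These differences between neighbours were not tested.

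HSPA5 rose more than each of its partners. The FPKM ratio of HSPA5 to HYOU1 was 4.10, 5.34 and 6.71 in GLY libraries and 5.99, 5.06 and 5.50 in GLY_PUE libraries, against 2.41, 2.45 and 2.30 in PUE libraries and 2.38, 2.31 and 2.68 in untreated libraries. The exposed libraries were all above the unexposed ones, and the log2 ratio was 1.16 higher in the 6 exposed libraries (two-sided exact permutation test within the PUE strata, p = 0.005, the smallest that 400 permutations can give; 0.0167 after adjustment over 10 pairs). The log2 ratio of HSPA5 to MANF was higher by 1.23 and that of HSPA5 to DNAJB9 by 0.99, each with an exact permutation p of 0.005 and an adjusted p of 0.0167. That of HSPA5 to SDF2L1 was higher by 0.97 (exact permutation p = 0.015, adjusted p = 0.0375), and it missed the threshold without GLY replicate 2 (adjusted p = 0.0625) and without GLY replicate 3 or untreated replicate 2 (adjusted p = 0.05 each). GLY replicate 1 was the exception for that pair, with a ratio of 12.8 against 10.97 to 15.4 in untreated libraries. The same library had the lowest exposed ratio of HSPA5 to MANF (3.41) and the highest of HSPA5 to DNAJB9 (63.3).

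The other 6 pairs did not pass, with adjusted p-values of 0.11 to 0.975 in the exact permutation test. Their differences of log2 ratio, exposed minus unexposed, ran from −0.24 for MANF to DNAJB9 to 0.25 for SDF2L1 to MANF. Without GLY replicate 1, the exact permutation test put HYOU1 to DNAJB9 at −0.38 (adjusted p = 0.025) and MANF to DNAJB9 at −0.53 (adjusted p = 0.01). In that fit DNAJB9 rose more than both.

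**Figure D4:**
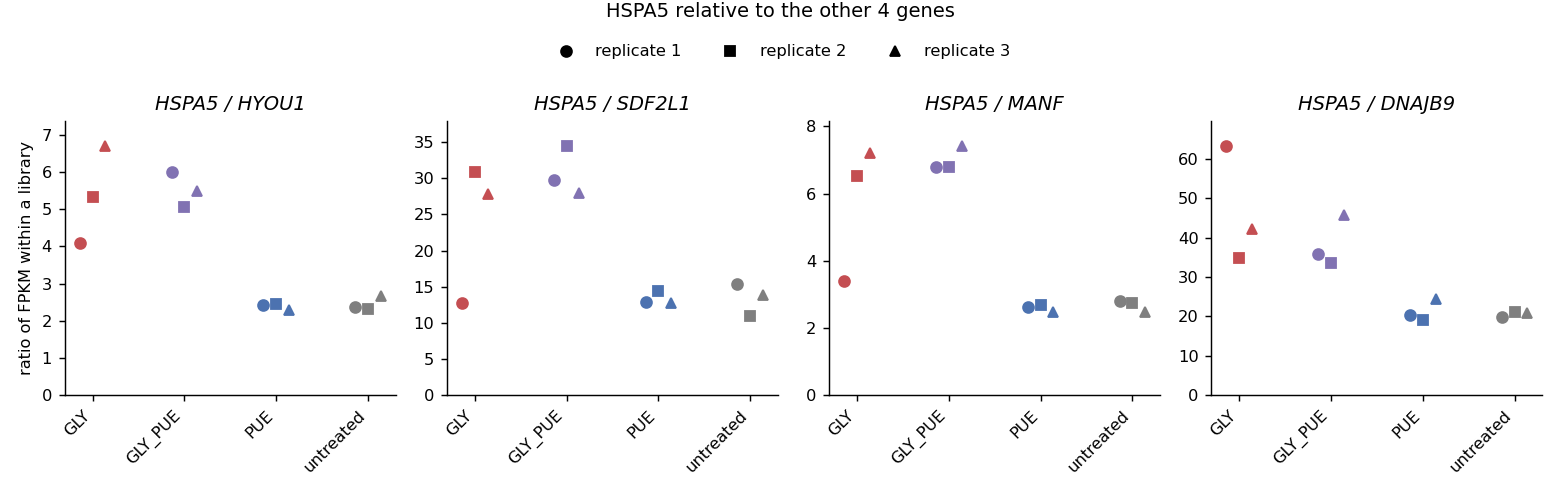
FPKM ratio of HSPA5 to each of the other 4 ER chaperone genes in the 12 libraries, by group and from 0. The ratios are higher in the GLY and GLY_PUE libraries, except for HSPA5 to SDF2L1 in GLY replicate 1 (12.8), which lies in the untreated range.

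The genes most like each member were found by the root mean square (RMS) difference of log2 CPM (counts scaled to the library total), each gene centred on its mean over the 12 libraries, among 2332 other listed genes. HSPA5 was closest to HSPA1A, an inducible cytosolic HSP70 (RMS difference 0.118), followed by BEX4 and the protease gene ADAMTS16 at 0.288 each. HSPA1A rose by 2.88 with GLY and 2.84 with GLY_PUE on the log2 scale, beside 2.86 and 2.88 for HSPA5. HYOU1 was closest to AKNA and LOC101929479 (0.116 each) and to the repressor gene NFIL3 (0.138). DNAJB9 was closest to the clock gene ARNTL (0.140), the cytokine gene TSLP (0.164) and SLC22A15 (0.192). With the other members left out, MANF and SDF2L1 shared BEX2 as their closest gene, at 0.132 and 0.216. MANF was next to LAT2 and KCNK6 at 0.176 each, and ROBO3 was also near SDF2L1 (0.240). Among the members, MANF was nearest to HYOU1 (0.192) and to SDF2L1 (0.206), and HSPA5 was far from its nearest member, DNAJB9 (0.550). On log2(FPKM + 1) the same 3 genes came up in part, 2 of 3 for HSPA5 and HYOU1 and 1 of 3 for the others.

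The list of the BiP cycle has 14 genes, of which 10 were in the table and tested, the 5 members included. In GLY against untreated 8 of the 10 rose and none fell, the 5 members among them, with a median log2 fold change of 1.56. Of all genes tested 19.7% were called higher. Listed genes were selected for change, so this count and the list counts below speak mainly of direction. Of the 5 genes that are not members 3 rose, and their median was 1.03 (0.57 without the libraries numbered 3), against −1.15 for all genes tested. Among these, chosen here after their values were seen, the J-domain genes DNAJB11 (1.03, adjusted p = 0.00556) and DNAJC1 (1.03, adjusted p = 0.00176) rose in edgeR's quasi-likelihood test, as did FICD (1.45, adjusted p = 0.00565), whose enzyme switches BiP off and on by AMPylation. DNAJC3, a co-chaperone that also inhibits PERK, stood at 8.23, 23.6 and 44.6 FPKM in GLY libraries, against 13.3, 14.4 and 11.6 FPKM in untreated libraries. Its GLY replicate 1 was below all untreated libraries and its other GLY libraries above them, and the change missed the threshold (0.96, adjusted p = 0.0540). CDNF, the paralogue of MANF, was at most 0.72 FPKM in any library and did not pass (−0.60, adjusted p = 0.226). In GLY_PUE against untreated, where 20.2% of genes were called higher, 4 of these 5 rose, DNAJC3 among them (1.09, adjusted p = 0.0369). CDNF fell there (−1.25, adjusted p = 0.0320). Without the libraries numbered 3 both calls were lost, at 0.81 for DNAJC3 (adjusted p = 0.139) and −0.99 for CDNF (adjusted p = 0.125), and that of CDNF was also lost under TMM (−0.23, adjusted p = 0.795) and RLE scaling (−0.27, adjusted p = 0.764).

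**Figure D5:**
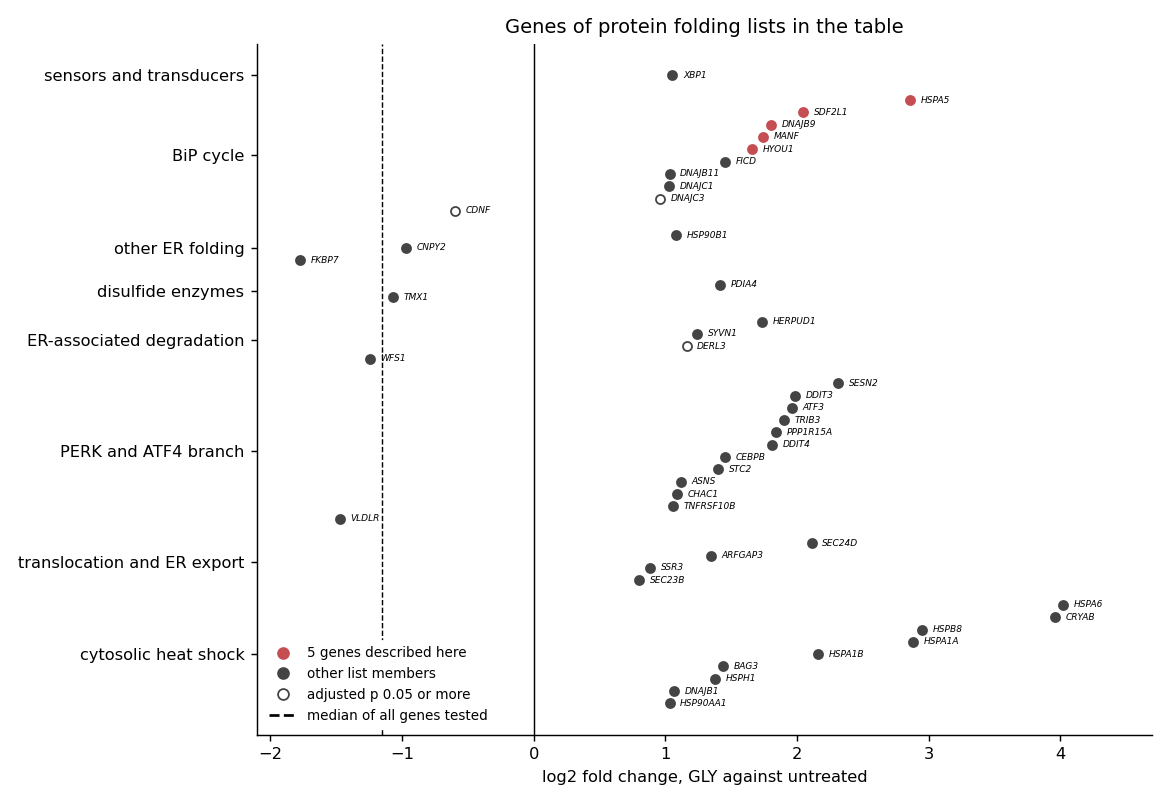
Log2 fold changes of GLY against untreated for the genes of the ER folding, stress and heat shock lists that were in the table, one point per gene, with the median of all genes tested (−1.15) as a dashed line. The 5 ER chaperone genes (1.66 to 2.86) lie above the other 5 genes of the BiP cycle (−0.60 to 1.45), and HSPA6 (4.02) and CRYAB (3.96) lie farthest right. The separation within the BiP cycle was not kept in GLY_PUE against untreated (not drawn), where FICD (1.61) was above MANF (1.47).

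Of 14 sensors and transducers only XBP1 was in the table. It had 116, 119 and 183 FPKM in GLY libraries, against 70.0, 72.6 and 56.5 FPKM in untreated libraries, and rose by 1.05 on the log2 scale (SE 0.24, adjusted p = 0.00239). All GLY libraries were above all untreated ones. Counts per gene do not separate the spliced from the unspliced mRNA. The PERK and ATF4 list had 12 of 15 genes in the table. Of these 11 rose and 1 fell, with a median of 1.63, where 19.7% of all genes tested rose. TRIB3, a pseudokinase induced by ATF4 and CHOP, had 440, 280 and 380 FPKM in GLY libraries, against 106, 106 and 77.5 FPKM in untreated libraries (1.91, SE 0.25, adjusted p = 9.61e-05). SESN2 (2.32, adjusted p = 0.000223), CEBPB (1.46, adjusted p = 0.00021) and STC2 (1.40, adjusted p = 0.000226) rose as well. The gene that fell was VLDLR (−1.47, adjusted p = 0.00115), named after its value was seen, and its call was lost under TMM scaling (−0.38). In GLY replicate 1, TRIB3 was the highest of its group whereas DNAJB9 was the lowest of its own.

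ER-associated degradation was represented by 4 of 25 genes. HERPUD1 (1.73, SE 0.37, adjusted p = 0.00152), a membrane component of the degradation complex, and SYVN1 (1.24, SE 0.26, adjusted p = 0.00153), its ubiquitin ligase HRD1, rose. HERPUD1 was at 1.15 without GLY replicate 3. WFS1 fell (−1.24, adjusted p = 0.00114) but was at −0.03 under TMM scaling, and DERL3 (1.16, adjusted p = 0.182) did not pass. DERL3 passed in 5 of 24 alternatives, among them TMM scaling (2.34, adjusted p = 0.0280) and the replicate block (1.12, adjusted p = 0.00574), and was at 0.42 without GLY replicate 3. Of 28 genes of translocation and ER export 4 were in the table and all 4 rose, against 19.7% of all genes tested. SEC24D, a cargo adaptor of COPII vesicles, had 8.77, 29.97 and 55.0 FPKM in GLY libraries, against 6.70, 7.76 and 7.18 FPKM in untreated libraries (2.11, adjusted p = 0.00259), and was at 1.42 without GLY replicate 3. Its GLY replicate 1 was near the untreated level, as for DNAJB9. ARFGAP3 (1.35, adjusted p = 0.00891), SSR3 (0.89, adjusted p = 0.00404) and SEC23B (0.80, adjusted p = 0.0304) were the others. The SEC23B call was lost in 11 of 24 alternatives and that of ARFGAP3 in 2, and without the libraries numbered 3 the count was 2 of 4.

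Among other folding enzymes in the table, some rose and others fell. HSP90B1 (GRP94), the HSP90 of the ER, had 183, 302 and 677 FPKM in GLY libraries, against 162, 157 and 230 FPKM in untreated libraries. The groups overlapped, and the change (1.08, SE 0.42, adjusted p = 0.0300) was 0.41 without GLY replicate 3 (adjusted p = 0.274) and lost its call in 8 of 24 alternatives. CNPY2 (−0.97, adjusted p = 0.00295) and FKBP7 (−1.78, adjusted p = 0.000402) fell, so that 1 of the 3 genes in the table out of 18 rose. Among all 3429 genes tested, 674 were called higher and 2216 lower, so a fall was the common direction. Under TMM scaling CNPY2 had the other sign (0.22) and FKBP7 did not pass (−0.63). Of 15 disulfide oxidoreductases 2 were in the table. PDIA4 rose (1.42, SE 0.49, adjusted p = 0.0187), at 0.56 without GLY replicate 3 (adjusted p = 0.189). TMX1 fell (−1.07, adjusted p = 0.0232), and under TMM scaling it was at 0.01.

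Chaperones outside the ER were looked up in the table as well. Of 21 cytosolic heat shock genes 9 were in the table and all 9 rose, against 19.7% of all genes tested. Their median was 2.16, and 8 rose without the libraries numbered 3. HSPA1A had 173, 223 and 461 FPKM in GLY libraries, against 41.1, 39.3 and 35.8 FPKM in untreated libraries (2.88, SE 0.33, adjusted p = 5.24e-05). HSPA1B (2.16, adjusted p = 0.000154) is a near-identical copy of HSPA1A, so the split of reads between them is uncertain. CRYAB (3.96, adjusted p = 0.000103) and HSPA6 (4.02, adjusted p = 0.000126), a small heat shock protein and an inducible HSP70, were at most 0.38 and 0.26 FPKM in untreated libraries. They were at 3.32 and 3.23 without GLY replicate 3. None of 10 mitochondrial chaperone genes was in the table, and they were not analysed here. The share of all genes that entered the table is not known, so this absence is not read as a difference between compartments.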

How the data were processed

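The authors deposited 1 table for the 12 libraries. Its read counts are, per the file headers and the values, estimated counts that were not normalized (58.2% of values were whole within 1e-09). Per the file headers it also holds an expression value with no unit, which behaves as FPKM. The authors also deposited log2 ratios between groups, each with a p-value and a q-value. The submitters' processing notes name TopHat and DESeq 1.32.0 without a role. Genome build and counting tool are not given in the sources used. No per-sample column was left without a sample (0 such columns).

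Dividing counts by FPKM over 625 genes gave relative library totals, which were put on an absolute scale with 39 single-transcript genes of GENCODE 29. Rounded counts went into edgeR 4.0.16 under R 4.3.3 (low counts removed by filterByExpr, quasi-likelihood test with robust fitting over all 4 groups, Benjamini-Hochberg over 3429 genes, call at an adjusted p under 0.05), and the script was tested on simulated data. limma 3.58.1, DESeq2 1.42.0, TMM and RLE scaling, other filters and pseudocounts, a replicate block and leaving out libraries were alternatives.

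The 5 genes, the lists and the alternatives were chosen with earlier results of these data known. The genes named are the 5 members, up to 4 per list with the smallest p in GLY against untreated, and the 3 genes most like each member, and any other is marked where it appears. One of these genes is not reported here. Same-numbered libraries deviated together with correlations of 0.173 to 0.702 in GLY_PUE against untreated, GLY_PUE against PUE and PUE against untreated. For GLY against untreated the correlations were 0.0560, 0.0973 and 0.271. The main fits used group means only and no pairing by number, so their intervals and p-values ignore such shared deviations. Pairing by number entered only the replicate block and the ratios within same-numbered libraries. Promoters are RefSeq's, of GRCh38.p14, and all 5 members were matched by symbol.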

Additional observations from a re-analysis of the deposited data

Results flagged for a closer look

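The GLY effect on HSPA5 was larger in the libraries numbered 3 than in those numbered 1 and 2, by 1.12 on the log2 scale, and that on HYOU1 by 0.93. Both differences came from an interaction fitted after the numbers had been seen to stand apart, with GLY and GLY_PUE joined and PUE and untreated joined. The third libraries gave the highest fold within their number for both genes, with and without PUE.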

How the results depend on the processing

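All 5 genes kept their direction and their call in GLY against untreated, GLY_PUE against untreated and GLY_PUE against PUE under 24 alternatives each. In GLY against untreated the log2 values ran from 2.29 to 3.94 for HSPA5, 1.28 to 2.77 for HYOU1, 1.72 to 3.20 for SDF2L1, 1.49 to 2.90 for MANF and 1.20 to 2.85 for DNAJB9. The replicate block changed no member's call in the edgeR comparisons, with 3086, 2926 and 2949 genes called in the 3 comparisons. TMM and RLE scaling gave 1158 and 1188, 1211 and 1234, and 1232 and 1250; both put the typical listed gene near 0. Leaving out 1 library gave 2406 to 2941, 2132 to 2995 and 2189 to 3009.

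With only the libraries compared and a replicate block, 1 gene was called in PUE against untreated. Without 1 library, GLY_PUE against GLY and the interaction each had 0 to 1 genes called. Changes near 0 turned sign, and the cause was not tested. In PUE against untreated SDF2L1 was at −0.00396 without the libraries numbered 3 and at −0.0652 to 0.18 without 1 library, and DNAJB9 at −0.0745 to 0.15. In GLY_PUE against GLY TMM and RLE gave −0.0745 and −0.0584 for HSPA5 and −0.0850 and −0.0595 for HYOU1. Without 1 library HSPA5 ran from −0.31 to 0.58, HYOU1 from −0.28 to 0.36 and DNAJB9 from −0.23 to 0.73. The HSPA5 interaction was 0.06 in limma-voom and on both FPKM scales (0.0567, 0.0572 and 0.0571), 0.00646 with the replicate block, 0.18 without the libraries numbered 3 and −0.36 to 0.53 without 1 library. That of HYOU1 was 0.00246 without the libraries numbered 3 and −0.36 to 0.27 without 1 library, and that of DNAJB9 −0.25 to 0.71.

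For the effect by library number, DESeq2 called 323 genes, limma on log2(FPKM + 1) 523 and on log2(FPKM + 0.1) 266, and leaving out 1 library gave 49 to 1115. Without 1 library the values ran from 1.02 to 1.22 for HSPA5, 0.80 to 1.21 for SDF2L1, 0.48 to 0.78 for MANF and 0.86 to 1.24 for DNAJB9.

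For the ratios, the replicate block is a sign flip over 6 pairs with a smallest p of 0.03125, and it gave adjusted p-values of 0.104, 0.156, 0.104 and 0.104 for HSPA5 to HYOU1, SDF2L1, MANF and DNAJB9 (1.16, 0.97, 1.23 and 0.99). At that smallest p the ratios with HSPA5 could not pass adjustment over 10 gene pairs by themselves, so this alternative cannot decide. Without the libraries numbered 3 the smallest p is 0.0556, so no pair could pass; the values were 1.09, 0.92, 1.06 and 1.01, and HYOU1 to MANF was at −0.0278. Without 1 library HSPA5 to SDF2L1 ran from 0.86 to 1.17, HYOU1 to DNAJB9 from −0.38 to −0.0532, SDF2L1 to DNAJB9 from −0.30 to 0.23 and MANF to DNAJB9 from −0.53 to −0.0757.

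Of 1964 values of other named genes under the alternatives, 1897 kept direction and side of the threshold, 49 lost the call, 12 gained it and 6 turned sign. Those 6 were CNPY2 with GLY (TMM 0.22, RLE 0.15), TMX1 with GLY (TMM 0.00788) and with GLY_PUE (TMM 0.27, RLE 0.24), and DERL3 with GLY_PUE without GLY_PUE replicate 3 (−0.0164, where leaving out other libraries gave up to 1.91).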

Other observations

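In GLY replicate 1, the library that stood apart from the other GLY libraries, some genes of the unfolded protein response were high and others low. DDIT3, which encodes the transcription factor CHOP, had 456, 292 and 443 FPKM in GLY libraries 1, 2 and 3, against 120, 123 and 52.2 FPKM in untreated libraries. TRIB3 had 440 FPKM and SESN2 102 FPKM in GLY replicate 1, each the highest of its group, and MANF and SDF2L1 were there above GLY replicate 2. DNAJB9, DNAJC3, SEC24D, SEC23B, FICD and TMX1 had 11.0, 8.23, 8.77, 23.7, 3.92 and 3.63 FPKM in that library, each the lowest of its GLY group. The level of DNAJC3 there was below the untreated range of 11.6 to 14.4 FPKM, that of SEC23B below 25.7 to 29.6 and that of TMX1 below 18.2 to 26.5. In GLY_PUE replicate 1 the same 6 genes had 28.5, 24.3, 31.4, 56.9, 7.75 and 12.3 FPKM. The PERK and ATF4 list was not uniform, since ATF3 had 64.4, 78.2 and 104 FPKM in GLY libraries 1, 2 and 3. A low level in GLY replicate 1 was not particular to this response. The cytosolic HSPH1 had 143, 497 and 651 FPKM and the clock gene ARNTL 13.2, 23.2 and 35.6 FPKM in those libraries. All of these genes were chosen after their values were seen, and the difference was not tested.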
